A study of Mus musculus with 21 samples.

Results

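Retinas taken 6 hours after optic nerve crush at embryonic day 20 (E20_ONC, 3 libraries) were compared with uncrushed retinas of the same age (E20_NTC, 3 libraries), which are 6 of the 21 libraries of the series. All 6 came from wild-type C57BL/6 mice, each library being polyadenylated RNA of 1 retina, and the mice of one age came from 1 litter. In E20_ONC the crush was done with forceps on embryos anaesthetised by cold, which then stayed warmed until collection. E20_NTC were naive retinas with no sham operation described, so effects of crush and effects of cooling, surgery and the hours that followed cannot be told apart. The deposited tables hold 46 genes, each named by the study for a change with age or after crush in its libraries. The members described here are the 45 genes other than Kdm5d, of which 42 had at least 10 fragments over the 6 libraries and were tested. Cnga1, Impg1 and Slco1a4 did not reach that minimum.

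The optic nerve carries the axons of retinal ganglion cells, the only neurons that connect the eye with the brain, and crushing it severs those axons while the cell bodies stay in the retina. Injury and other strong stimuli are known to switch on immediate early genes, which are transcribed without prior protein synthesis. Many of their products are transcription factors. At this age the rodent retina still holds dividing progenitors, newborn ganglion cells and photoreceptor precursors, and signals such as fibroblast growth factors pattern it.

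Library size, as count, FPKM (fragments scaled to gene length in kilobases and to library size) and gene length imply it, was 15056378 to 19333818 fragments in E20_NTC and 14433863 to 15265628 in E20_ONC. The table took 0.112% to 0.126% of it in E20_NTC and 0.140% to 0.187% in E20_ONC. Y-linked Kdm5d had 1135 and 799 fragments in E20_NTC replicates 1 and 2 and 0 in E20_NTC replicate 3 and in all of E20_ONC. The sex of the animals may therefore differ between the groups, and its part in the results was not tested beyond the next fit. With E20_NTC replicate 3 as the only control, 17 of the 29 calls described here were kept. All spread in that fit comes from the E20_ONC libraries and the lone control is assumed to vary like them, so a lost call there does not show a smaller difference. The neural retina genes Nrl, Atoh7 and Foxn4 were present in every library, at 8.46 FPKM or more.

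Of the 42 genes, 17 were higher and 12 lower in E20_ONC, and 13 were not called. Calls needed a fold change above 1.5 and an adjusted p below 0.1 in edgeR's quasi-likelihood test with Benjamini-Hochberg adjustment. The background over all 43 genes tested was 39.5% higher and 30.2% lower, 69.8% in either direction, and since it differs from the members only by Kdm5d nothing about them is read from it. In 15 genes every E20_ONC library lay above all E20_NTC libraries and in 12 every one lay below, against 34.9% and 27.9% of the genes tested, 62.8% in either direction. All 27 of these were called, and the other 2 calls, Gm4981 and Cpne1, were of genes whose libraries overlapped. In Cryaa and Lcn2 the nearest libraries of the 2 groups held equal numbers of fragments, 1 and 2 in that order. Only the scaling to library size set those libraries apart. TMM factors were taken from the 43 genes tested alone and shift the median log2 fold change by -0.39. With them the split was 12 higher and 14 lower, and 22 genes did not overlap. With DESeq2 median ratios from the same genes, 26 did not overlap. The median log2 fold change was 0.10 over the members and 0.09 over all genes tested. In bulk retina, fewer cells of a type and less RNA per cell cannot be told apart.

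The study had picked these genes for different contrasts. All 14 members listed for crush at E20 were called, 7 in each direction, and 13 of them did not overlap, but these are the libraries on which they were picked. The 6 genes listed for crush at P1 were called in the study on P1 libraries. The paper also screened them with regard to their change with age in the normal retina, where E20_NTC takes part. They are therefore not known to be picked independently of the controls used here. Of these 6 genes, Cpne1, Zfp296 and Zfp692 were higher at E20, Sall3 was lower, and Egr1 and Sox1 were not called. All 3 higher calls of that list were lost with TMM factors, at adjusted p = 0.192 for Cpne1, 0.106 for Zfp296 and 0.304 for Zfp692 (edgeR). Of the 22 genes listed for a change with age, 7 were higher, 4 were lower and 11 were not called, and that list shares the E20_NTC libraries.

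**Figure D1:**
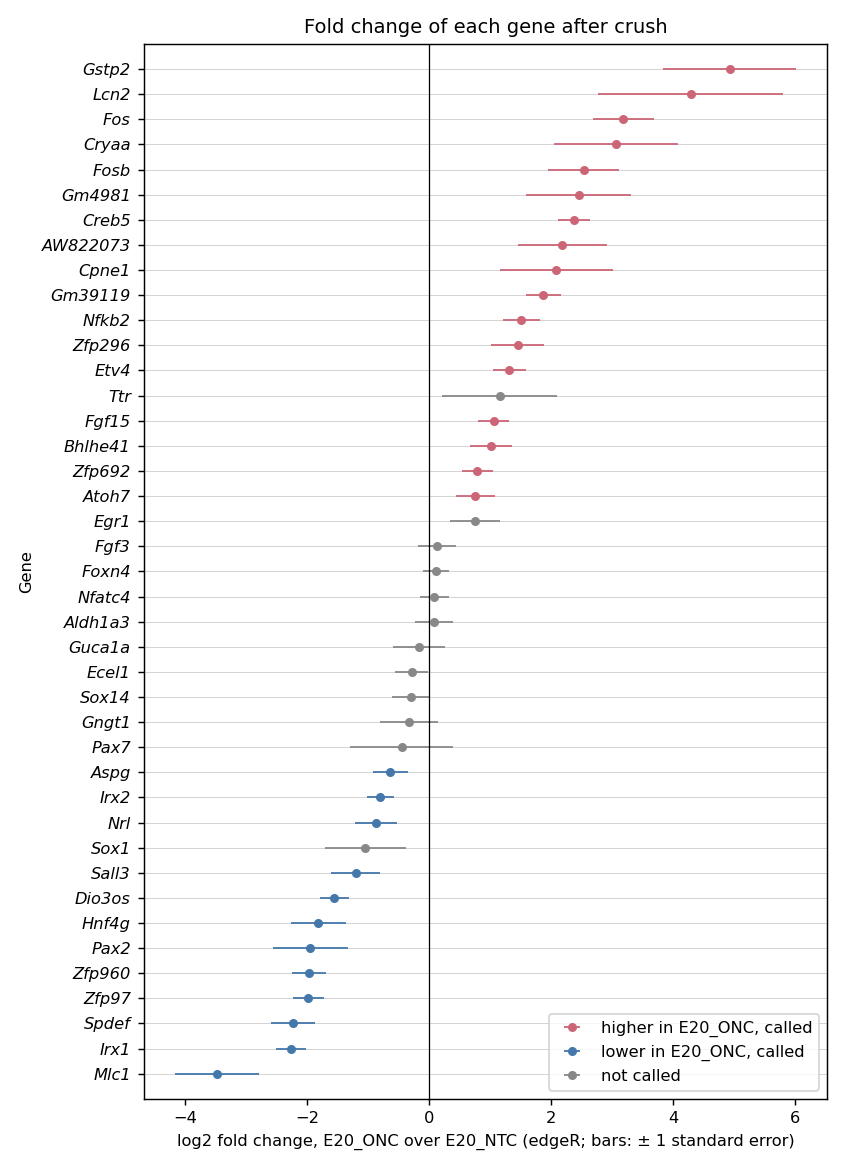
log2 fold change of E20_ONC against E20_NTC for 41 of the 42 genes tested, with its standard error as bars, 3 libraries in each group. Gstp2 lies farthest to the higher side at 4.93 and Mlc1 farthest to the lower side at -3.48.

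Among the immediate early genes, Fos and Fosb were higher and Egr1 was not called. Fos, a subunit of the AP-1 transcription factor, was at 0.374, 0.316 and 0.367 FPKM in E20_NTC and 1.36, 3.77 and 4.59 FPKM in E20_ONC. The lowest crushed library was 3.65 times the highest control, and E20_ONC replicate 1 lay well under the other crushed retinas. The log2 fold change was 3.19 ± 0.50 (SE, adjusted p = 0.00338, edgeR), on 42 fragments in E20_NTC and 338 in E20_ONC. Fosb, a second AP-1 subunit, had 2, 3 and 4 fragments in E20_NTC and 7, 22 and 19 in E20_ONC. Its groups did not overlap and its log2 fold change was 2.53 ± 0.58 (adjusted p = 0.0137, edgeR), but the control level rested on 9 fragments. Egr1, a zinc finger factor of the same response, was at 0.611, 0.718 and 0.711 FPKM in E20_NTC and 1.59, 0.541 and 1.30 FPKM in E20_ONC. E20_ONC replicate 2, among the highest libraries for Fos and Fosb, was the lowest of all 6 for Egr1. The log2 fold change of Egr1 was 0.75 ± 0.42 (adjusted p = 0.163, edgeR), and without that library it was 1.09 (adjusted p = 0.0337).

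Of the other signal-dependent transcription factors, Creb5, Nfkb2 and Bhlhe41 were higher and Nfatc4 was not called. Creb5, which binds cAMP response elements, was at 0.101, 0.0964 and 0.0743 FPKM in E20_NTC and 0.401, 0.509 and 0.511 FPKM in E20_ONC. It had the widest gap between the groups among the genes that rose on more than a few fragments, 3.95 times, with crushed retinas close to each other. Its log2 fold change was 2.38 ± 0.26 (adjusted p = 0.00141, edgeR). Nfkb2, the p100 and p52 subunit of the NF-κB family, was at 0.739, 0.753 and 0.545 FPKM in E20_NTC and 2.37, 1.39 and 2.06 FPKM in E20_ONC. These groups too were apart, with a log2 fold change of 1.51 ± 0.30 (adjusted p = 0.00867, edgeR). Bhlhe41, a repressor of the circadian clock, rose least, by 1.02 ± 0.35 on the log2 scale (adjusted p = 0.0428, edgeR). It lost its call without E20_NTC replicate 2 or E20_ONC replicate 2, its log2 fold change without 1 library running from 0.68 to 1.22. Nfatc4, a calcineurin-dependent factor, was at 4.04 to 4.92 FPKM in E20_NTC and 3.95 to 5.53 FPKM in E20_ONC, with a log2 fold change of 0.09 ± 0.24.

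The start regions of Creb5 and Nfkb2, and of Gstp2 described next, are shown because each holds letters bound by factors of the families measured here. They are the 120 bases before a transcript start in RefSeq (GRCm38.p6), the first listed whose window holds those letters, with matches in capitals. The Creb5 stretch (chr6:53287183-53287302, plus strand) holds the cAMP response element TGACGTCA, the Gstp2 stretch (chr19:4042222-4042341, minus strand) the AP-1 letters TGANTCA and then a CArG box, and the Nfkb2 stretch (chr19:46304617-46304736, plus strand) the kappa-B letters GGGNNTTCC, whose first site reads on both strands with the matches overlapping.
Creb5: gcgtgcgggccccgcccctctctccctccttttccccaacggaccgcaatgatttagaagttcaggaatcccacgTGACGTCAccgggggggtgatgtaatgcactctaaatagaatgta
Gstp2: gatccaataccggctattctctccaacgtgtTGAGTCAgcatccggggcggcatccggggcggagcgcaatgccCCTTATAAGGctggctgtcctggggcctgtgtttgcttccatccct
Nfkb2: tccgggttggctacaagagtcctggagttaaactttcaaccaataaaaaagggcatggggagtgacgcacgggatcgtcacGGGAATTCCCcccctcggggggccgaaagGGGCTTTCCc

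Both strands of 300-base windows were searched, and 30 of the 42 genes had at least 1, some of them more. Shares below are of windows but counts are of genes, so the 2 cannot be compared directly. In Creb5 and Nfkb2 the TGANTCA match lay in another window than the one shown. TGACGTCA was in 1.79% of all 32851 windows and in 1 of the 30 genes, Creb5. TGANTCA was in 7.81% of windows and in 5 genes, Creb5, Cryaa, Gngt1, Gstp2 and Nfkb2, and GGGNNTTCC was in 5.82% and in 2 genes, Cryaa and Nfkb2. The CArG box, the letters that serum response factor binds, was in 1.63% and in Gstp2 alone of the 30. The ETS letters CCGGAA were in 14.9% of windows and in Pax2 and Zfp97, both lower in E20_ONC. The early growth response site GCGTGGGCG was in 0.612% and in none of the 30. The windows of Fos and Fosb held none of these letters, but they reach only 250 bases before the start, and sites farther out were not searched. A match describes the letters and is not evidence of binding.

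Both stress and acute-phase genes were higher, and both on few fragments. Gstp2, a glutathione S-transferase that conjugates reactive compounds, had 0, 1 and 0 fragments in E20_NTC and 5, 24 and 8 in E20_ONC. All crushed retinas lay above all controls, with E20_ONC replicate 2 the highest. The ratio of summed counts scaled to library size was 41.9, with a 95% interval of 7.07 to 1699.7 that covers counting error only, and the fitted log2 fold change was 4.93 ± 1.09 (adjusted p = 0.0124, edgeR). It was 3.99 without E20_ONC replicate 2 and 6.74 without E20_NTC replicate 2, the control with the only fragment. Of the 100-base stretches of Gstp2 transcripts, 46.9% also occur in other genes, mostly Gstp1 and Gstp-ps, so its counts are uncertain. Lcn2, lipocalin 2, which binds iron-carrying siderophores, had 0, 2 and 1 fragments in E20_NTC and 2, 5 and 52 in E20_ONC. E20_ONC replicate 3 held 83.9% of all of them, and in E20_ONC replicate 1 Lcn2 stood only 1.06 times above the highest control. Its ratio was 22.3 (95% interval 7.26 to 111) and its log2 fold change 4.29 ± 1.52 (adjusted p = 0.0472, edgeR), which became 1.85 (adjusted p = 0.161) without E20_ONC replicate 3. The call was lost without any 1 of the control libraries too.

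**Figure D2:**
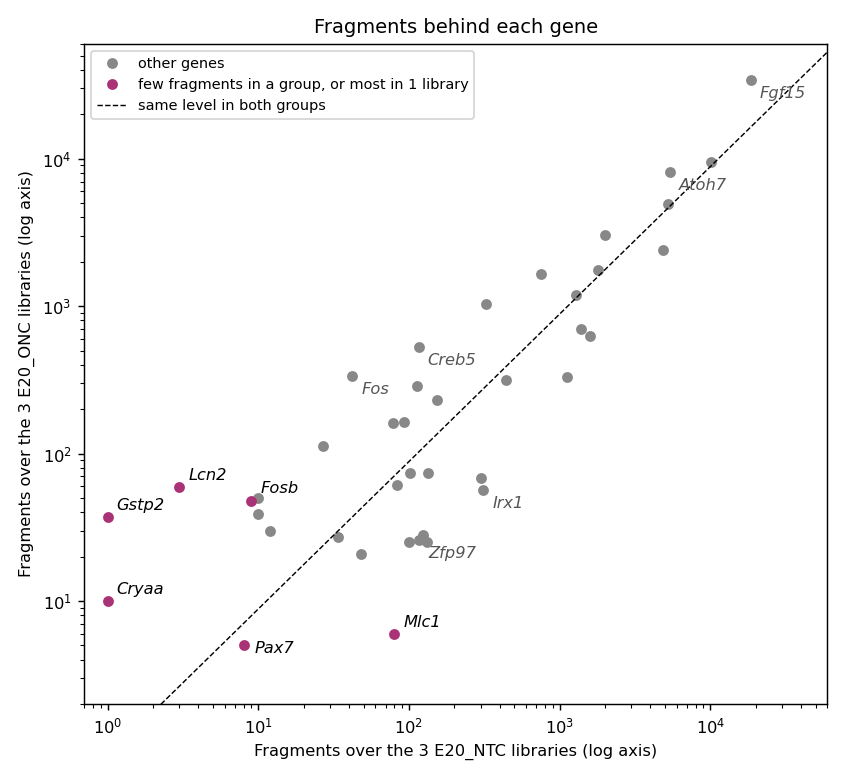
Fragments of each gene summed over the 3 E20_NTC libraries against those summed over the 3 E20_ONC libraries, on logarithmic axes, for 41 genes, with 6 that rest on few fragments in colour and a dashed line for equal levels. Gstp2, at 1 and 37 fragments, and Lcn2, at 3 and 59, lie far above the line, and Mlc1, at 80 and 6, far below it.

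Of the fibroblast growth factors and their ETS target, Fgf15 and Etv4 were higher and Fgf3 was not called. Fgf15, a growth factor that retinal progenitors release, was at 122.6, 107.3 and 131.4 FPKM in E20_NTC and 196.6, 304.4 and 251.7 FPKM in E20_ONC. It had the highest FPKM of the table in every library and had the largest difference in level of all members, 120.5 ± 12.2 against 250.9 ± 53.9 FPKM (SD, n = 3 each). Its log2 fold change was 1.06 ± 0.26 (adjusted p = 0.0163, edgeR), and with E20_NTC replicate 3 as the only control it was 0.93 and not called (adjusted p = 0.155). Fgf15 took 30.7% to 34.7% of the members' fragments in E20_NTC and 43.0% to 49.9% in E20_ONC. Etv4, an ETS factor known as a target of fibroblast growth factor signalling, was at 4.93, 5.88 and 3.51 FPKM in E20_NTC and 11.2, 11.4 and 13.0 FPKM in E20_ONC. The crushed retinas lay close together, at least 1.91 times above the controls, and Etv4 rose by 1.31 ± 0.27 on the log2 scale (adjusted p = 0.00923, edgeR). Fgf3, which lies beside Fgf15 on chromosome 7, was at 13.5, 12.4 and 20.9 FPKM in E20_NTC and 14.5, 22.0 and 14.6 FPKM in E20_ONC. Its groups overlapped, and its log2 fold change was 0.13 ± 0.32.

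The noncoding RNA Gm39119, on the strand opposite to Fgf15, was also higher. It was at 7.23, 5.34 and 7.54 FPKM in E20_NTC and 18.5, 29.2 and 25.9 FPKM in E20_ONC, so its groups were 2.45 times apart. Its log2 fold change was 1.87 ± 0.29 (adjusted p = 0.00338, edgeR). Exons of other genes on the opposite strand, Gm39119 and Gm26793, cover 25.7% of the exon bases of Fgf15, while 2.7% of those of Gm39119 lie over Fgf15. The strand setting of the counting is not given in the sources used here. Reads from the shared bases therefore cannot be assigned to 1 of these genes. That limit also holds for Bhlhe41, Nfkb2, Cryaa and Zfp296. Exons on the opposite strand cover 19.0%, 18.1%, 13.2% and 12.9% of their exon bases, in that order. The other noncoding RNA, Dio3os, transcribed opposite to the deiodinase gene Dio3, was lower. It was at 14.3, 14.0 and 10.6 FPKM in E20_NTC and 3.89, 4.73 and 4.62 FPKM in E20_ONC. The groups were 2.24 times apart and the log2 fold change was -1.55 ± 0.24 (adjusted p = 0.00338, edgeR).

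**Figure D3:**
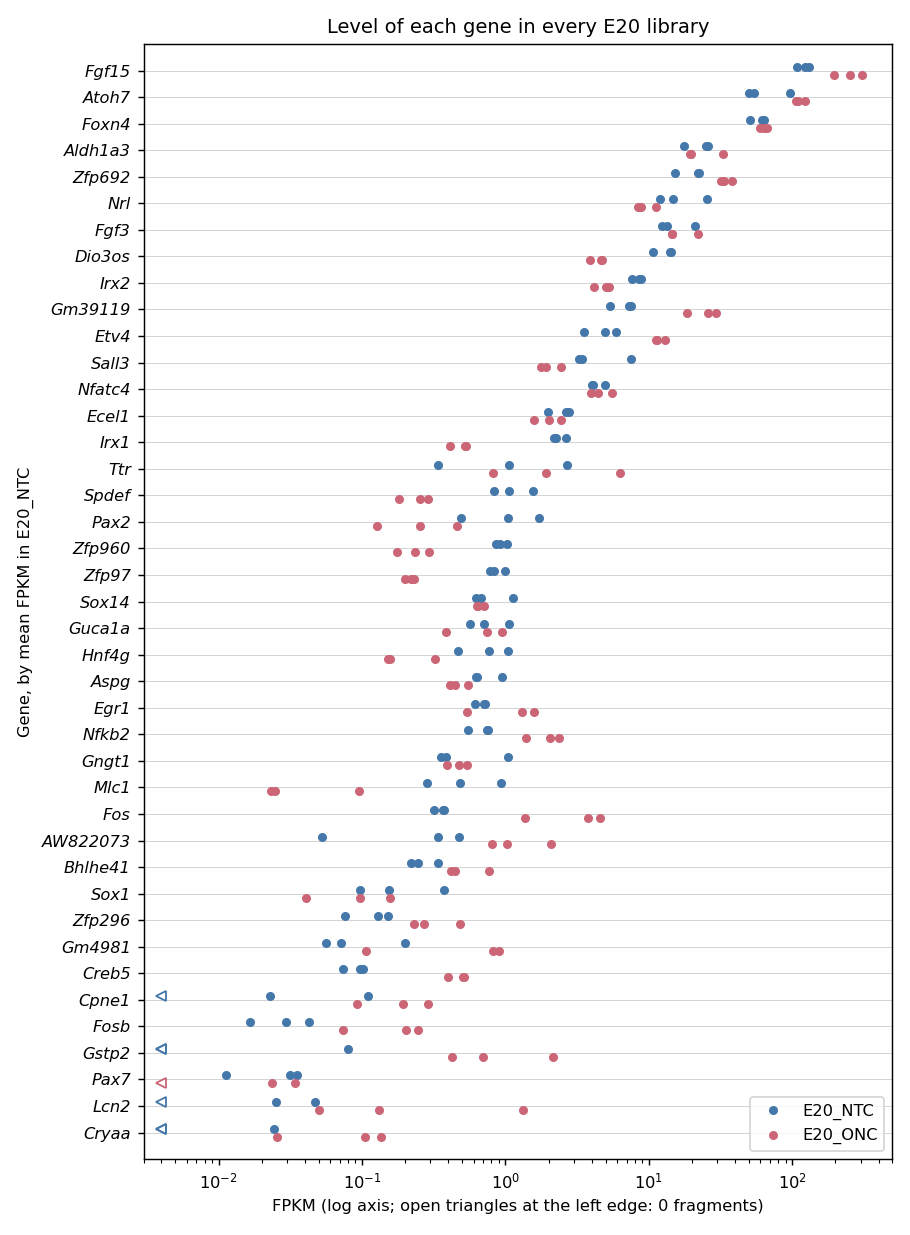
FPKM of 41 genes in each of the 6 libraries on a logarithmic axis, with E20_NTC and E20_ONC in different colours and open triangles for libraries with 0 fragments. Fgf15 is the highest gene in every library, at 107.3 to 131.4 FPKM in E20_NTC and 196.6 to 304.4 FPKM in E20_ONC.

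Among the progenitor and neurogenic factors 1 gene was higher, 1 was lower and 3 were not called. Atoh7, the factor that retinal ganglion cells need to form, was at 53.7, 50.2 and 96.1 FPKM in E20_NTC and 106.8, 122.0 and 109.2 FPKM in E20_ONC. E20_NTC replicate 3 came within 1.11 times of the lowest crushed retina, far from the other controls. The log2 fold change was 0.76 ± 0.32 (adjusted p = 0.0789, edgeR), and of the 6 fits that each left out 1 library only that without E20_NTC replicate 3 kept the call. With that library as the only control the log2 fold change was 0.23 (adjusted p = 0.651). Sall3, a spalt zinc finger factor of horizontal cells, was at 3.27, 3.40 and 7.48 FPKM in E20_NTC and 1.78, 2.42 and 1.92 FPKM in E20_ONC. It fell by 1.21 ± 0.40 on the log2 scale (adjusted p = 0.0425, edgeR), with its highest level again in E20_NTC replicate 3, and the call was lost without E20_ONC replicate 3 (adjusted p = 0.115). Foxn4, a progenitor factor for amacrine and horizontal cells, was at 64.1, 61.7 and 50.9 FPKM in E20_NTC and 60.1, 66.4 and 64.0 FPKM in E20_ONC. Those levels overlapped throughout, with a log2 fold change of 0.11 ± 0.22, and Sox1 and Sox14, factors of the SOX family, had log2 fold changes of -1.05 ± 0.66 and -0.29 ± 0.31.

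Both Iroquois homeobox genes fell. Irx1 was at 2.27, 2.17 and 2.64 FPKM in E20_NTC and 0.525, 0.529 and 0.409 FPKM in E20_ONC. The lowest control was 4.11 times the highest crushed retina, the widest gap of any member that fell, and the log2 fold change was -2.27 ± 0.25 (adjusted p = 0.00141, edgeR). Irx2 was at 8.89, 8.56 and 7.65 FPKM in E20_NTC and 5.25, 5.003 and 4.12 FPKM in E20_ONC. It fell by 0.80 ± 0.22 on the log2 scale (adjusted p = 0.0271, edgeR) and was not called with E20_NTC replicate 3 as the only control, where the log2 fold change was -0.67 (adjusted p = 0.188). Aldh1a3, which makes retinoic acid and marks the ventral embryonic retina in mice, was at 17.7, 24.9 and 25.8 FPKM in E20_NTC and 19.8, 32.7 and 19.4 FPKM in E20_ONC, with a log2 fold change of 0.07 ± 0.31.

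The optic stalk and astrocyte genes Pax2 and Mlc1 fell. Mlc1, a membrane protein of astrocytes, had 26, 42 and 12 fragments in E20_NTC and 1, 1 and 4 in E20_ONC. The groups stood 2.97 times apart relative to library size, and the log2 fold change was -3.48 ± 0.70 (adjusted p = 0.00867, edgeR), on 6 fragments in the crushed group. Pax2, a paired box factor of the optic stalk and of optic nerve head astrocytes, was at 1.04, 1.73 and 0.491 FPKM in E20_NTC and 0.254, 0.128 and 0.458 FPKM in E20_ONC. Its groups were only 1.07 times apart, since E20_NTC replicate 3 was close to E20_ONC replicate 3. It fell by 1.95 ± 0.62 on the log2 scale (adjusted p = 0.0424, edgeR), and the call was lost without E20_NTC replicate 2 (adjusted p = 0.110) and with E20_NTC replicate 3 as the only control (adjusted p = 0.438). Both genes were highest in E20_NTC replicate 2. Pax2 marks the nerve head, but for Mlc1 the paper names the layer of ganglion cells as its chief site. In the optic nerve the paper describes Mlc1 in astrocytes around axons. How much nerve head each dissection held was not tested, nor was the cell type in which Mlc1 fell.

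**Figure D4:**
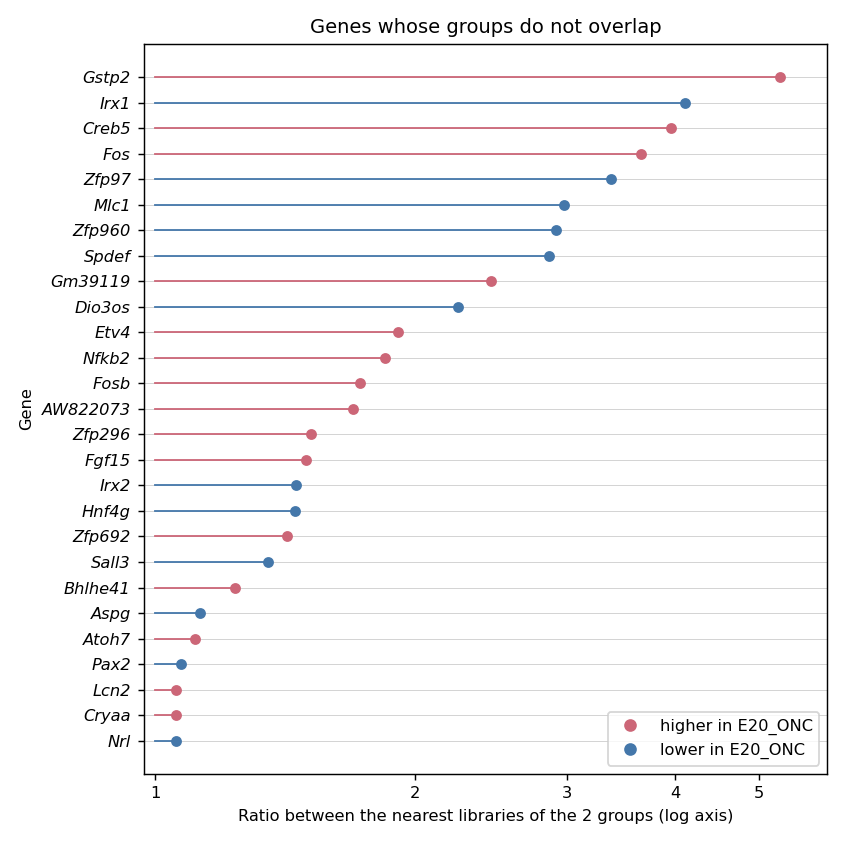
Gap between the groups for each gene that did not overlap, as the lowest library of the higher group over the highest library of the lower group, on a logarithmic axis. Gstp2 at 5.29 and Irx1 at 4.11 have wide gaps, while Lcn2, Cryaa, Nrl and Pax2 stand 1.06 to 1.07 apart.

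Of the photoreceptor genes 4 were tested and 1 was lower. Nrl, the leucine zipper factor that directs precursors to the rod fate, was at 11.9, 14.7 and 25.5 FPKM in E20_NTC and 11.2, 8.46 and 8.83 FPKM in E20_ONC. The groups were 1.06 times apart, and the log2 fold change of -0.87 ± 0.35 (adjusted p = 0.0702, edgeR) became -0.49 (adjusted p = 0.131) without E20_NTC replicate 3. The call was also lost without E20_NTC replicate 2, E20_ONC replicate 2 or E20_ONC replicate 3. Gngt1, the rod transducin gamma subunit, and Guca1a, which activates guanylate cyclase, had log2 fold changes of -0.32 ± 0.48 and -0.16 ± 0.43. Cnga1, the rod cation channel, had 0, 1 and 2 fragments in E20_NTC and 3, 1 and 1 in E20_ONC, and Impg1, a protein of the matrix around photoreceptors, had 1, 1 and 2 and then 0, 2 and 0. Neither was measured deeply enough for a difference to be detectable.

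Genes of the lens and pigment epithelium varied between libraries of 1 group. Ttr, transthyretin, which the pigment epithelium secretes, had 8, 21 and 49 fragments in E20_NTC and 36, 110 and 15 in E20_ONC. Within each group the highest FPKM was over 7 times the lowest, 7.87 times in E20_NTC and 7.58 times in E20_ONC, and the log2 fold change of 1.15 ± 0.94 was not called (adjusted p = 0.340, edgeR). It was 0.0378 without E20_ONC replicate 2 and 2.11 without E20_NTC replicate 3. Cryaa, the lens crystallin alpha A, had 0, 1 and 0 fragments in E20_NTC and 1, 5 and 4 in E20_ONC. It was called, with a log2 fold change of 3.07 ± 1.02 (adjusted p = 0.0425, edgeR), on 11 fragments in all, and the ratio of summed counts scaled to library size was 11.3 (95% interval 1.61 to 492). Its call was lost without E20_NTC replicate 1, E20_ONC replicate 2 or E20_ONC replicate 3. Slco1a4, an organic anion transporter, had 0, 0 and 2 fragments in E20_NTC and 1, 4 and 0 in E20_ONC. E20_ONC replicate 2 had the most fragments of Ttr, Cryaa and Slco1a4, and also the highest Fgf15 and Gstp2, and the part of adhering tissue in those was not tested.

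Zfp97 and Zfp960, zinc finger genes that neighbour each other on chromosome 17, both fell. Zfp97 was at 0.829, 0.784 and 0.990 FPKM in E20_NTC and 0.220, 0.232 and 0.200 FPKM in E20_ONC, and Zfp960 at 0.912, 0.858 and 1.02 FPKM and then 0.295, 0.234 and 0.176 FPKM. In both genes every crushed retina was well under every control, 3.37 and 2.91 times apart. Their log2 fold changes were -1.98 ± 0.25 (adjusted p = 0.00226, edgeR) and -1.97 ± 0.28 (adjusted p = 0.00338). They cannot be taken as independent measurements, since 1608 of the 1638 coding bases are identical (98.2%) and the first 507 do not differ at all. Of their 100-base transcript stretches, 67.3% and 68.3% occur in another gene. How reads that match both genes were counted is not given in the sources used here. The stretch where they differ most is shown, coding bases 1255 to 1344 in mm10 (chr17:17145495-17145584 for Zfp97 and chr17:17088280-17088369 for Zfp960, plus strand), with the 16 bases that differ in capitals.
Zfp97: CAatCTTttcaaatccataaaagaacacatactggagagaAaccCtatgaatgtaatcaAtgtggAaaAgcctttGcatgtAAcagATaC
Zfp960: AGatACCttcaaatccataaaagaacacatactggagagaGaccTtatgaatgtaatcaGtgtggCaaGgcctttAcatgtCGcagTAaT

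Gm4981 and AW822073, homeobox genes that lie near each other on chromosome 10, were both higher. AW822073 was at 0.0528, 0.474 and 0.339 FPKM in E20_NTC and 0.803, 2.09 and 1.03 FPKM in E20_ONC. The groups were 1.69 times apart, and the log2 fold change of 2.19 ± 0.73 (adjusted p = 0.0425, edgeR) was not called without E20_ONC replicate 2 (adjusted p = 0.107). Gm4981 had 2, 6 and 2 fragments in E20_NTC and 3, 22 and 25 in E20_ONC. E20_ONC replicate 1 overlapped the controls, and the log2 fold change was 2.45 ± 0.86 (adjusted p = 0.0472, edgeR), with the call kept only without E20_NTC replicate 2 or E20_ONC replicate 1 among the fits that left out 1 library. Of the 100-base stretches of AW822073, 26.7% occur in other genes, mainly Duxf3.

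Among the remaining genes Spdef and Hnf4g fell furthest. Spdef, an ETS factor of secretory epithelia, was at 0.830, 1.56 and 1.07 FPKM in E20_NTC and 0.256, 0.180 and 0.291 FPKM in E20_ONC. It was 2.86 times apart and fell by 2.23 ± 0.36 on the log2 scale (adjusted p = 0.00338, edgeR). Hnf4g, a nuclear receptor of gut and kidney, was at 0.767, 0.471 and 1.04 FPKM in E20_NTC and 0.324, 0.158 and 0.153 FPKM in E20_ONC. It too was apart, and fell by 1.82 ± 0.45 (adjusted p = 0.0168, edgeR). Aspg, an asparaginase, fell least, by 0.64 ± 0.28 (adjusted p = 0.0899, edgeR), with groups 1.13 times apart, and kept its call in 1 of the 6 fits without 1 library, that without E20_NTC replicate 3.

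Zfp692, a zinc finger factor, was at 22.5, 22.0 and 15.2 FPKM in E20_NTC and 33.2, 32.0 and 38.0 FPKM in E20_ONC. Its groups were 1.42 times apart, with a log2 fold change of 0.79 ± 0.25 (adjusted p = 0.0424, edgeR), which was not called without E20_ONC replicate 3 (adjusted p = 0.116) or with TMM factors, where it was 0.38. Zfp296, a zinc finger factor of pluripotent cells, was at 0.0762, 0.152 and 0.130 FPKM in E20_NTC and 0.482, 0.272 and 0.230 FPKM in E20_ONC. Those libraries were 1.52 times apart on 12 and 30 fragments, and the log2 fold change was 1.45 ± 0.44 (adjusted p = 0.0375, edgeR). It was not called with TMM factors (1.09) or with E20_NTC replicate 3 as the only control (1.31, adjusted p = 0.192). Cpne1, a calcium-dependent phospholipid-binding protein, had 2, 8 and 0 fragments in E20_NTC and 20, 6 and 13 in E20_ONC, with overlap. Its log2 fold change was 2.08 ± 0.92 (adjusted p = 0.0899, edgeR), and 84.1% of its exon bases also belong to Gm28036 or Rbm12 on the same strand. The call of Cpne1 was kept only without E20_NTC replicate 2 or E20_ONC replicate 2. Ecel1, a neuronal endopeptidase, had a log2 fold change of -0.29 ± 0.27, and Pax7, a paired box factor of the dorsal brain and muscle, had 8 fragments in E20_NTC and 5 in E20_ONC.

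In E20_NTC 18 of the 42 genes had a mean of at least 1 FPKM and in E20_ONC 20, and 8 reached 10 FPKM in each group. Under 1 FPKM in both groups were 19 genes, of which 13 were called, and of the 23 genes above it in a group 16 were called. The largest rises in level were those of Fgf15, by 130.4 FPKM, Atoh7, by 46.0 FPKM, and Gm39119, by 17.8 FPKM. The largest falls were in Dio3os, which fell by 8.56 FPKM, and Nrl, which fell by 7.85 FPKM. Gstp2 rose by 1.07 FPKM.

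Calls resting on few fragments were 5 of 7 such genes (Gstp2, Lcn2, Cryaa, Fosb and Mlc1). Those have under 10 fragments in the lower group or over 50% of all fragments in 1 library. Of the other 35 genes 24 were called, 13 higher and 11 lower. Some of those lie close to that limit, with 10 fragments over E20_NTC for Cpne1 and for Gm4981 and 12 for Zfp296. A minimum of 10 counts in at least 3 libraries left Cpne1, Gm4981 and Zfp296 untested. Calls of 17 genes, 9 higher and 8 lower, held in all 6 fits that each left out 1 library. Of the members E20_ONC replicate 2 was the highest crushed library in 20 and E20_ONC replicate 1 the lowest in 24.

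**Figure D5:**
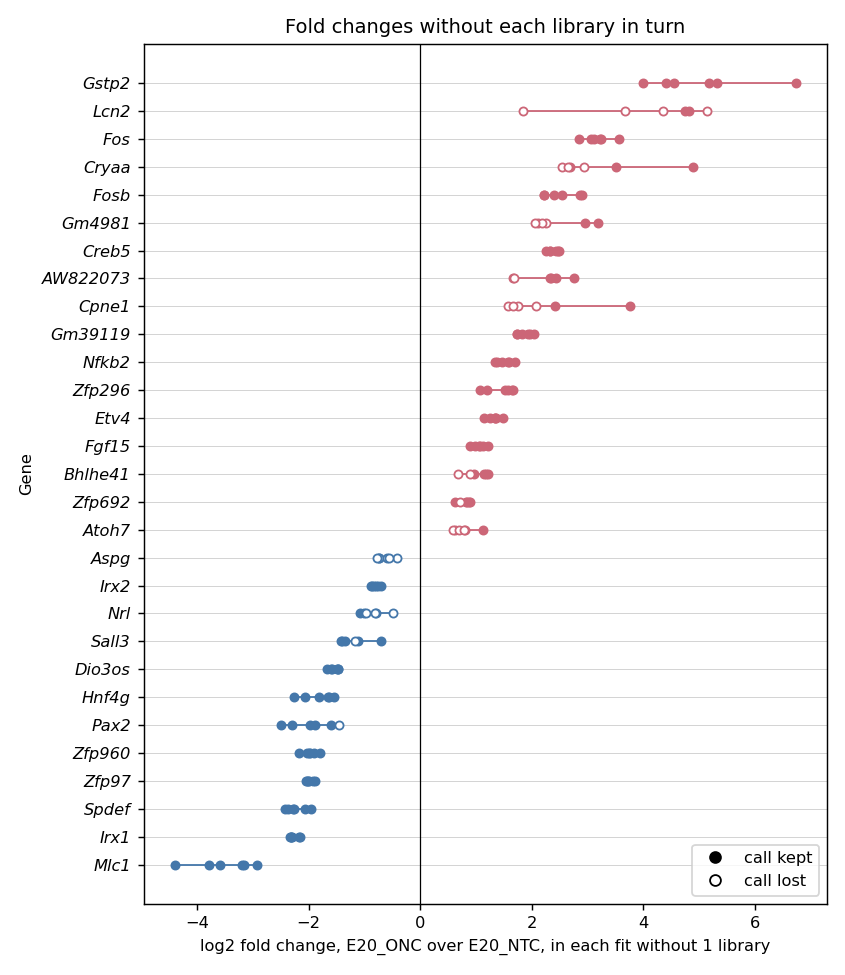
log2 fold change of the 29 called genes in each of the 6 fits that left out 1 library, with filled points where the call was kept and open points where it was lost. Lcn2 ranges from 1.85 to 5.15, while Creb5 stays between 2.26 and 2.49 and Irx1 between -2.33 and -2.16.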

How the data were processed

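The authors used HISAT2 2.0.5 to align paired reads of polyadenylated RNA to mm10 and featureCounts 1.5.0-p3 for the deposited counts, fragments per gene. Whether counting used strand is not given in the sources used here. The authors derived the deposited FPKM from these counts and the deposited gene lengths. Repeated entries were dropped, leaving 46 genes. Library size was the count divided by FPKM and by gene length, with the units of FPKM restored. It was the same for all genes of a library, but a whole number in 0 of the 21 libraries (tolerance 0.001), so it is not the plain total of assigned fragments that was planned, and how it was made is not known here. No further composition factor was applied, and whether one is already part of that library size is not known.

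The 6 libraries were compared in edgeR 4.0.16 under R 4.3.3 with its two-sided quasi-likelihood F test on genes with at least 10 counts in all, without abundance trend, with Benjamini-Hochberg adjustment over all 43. The SE is the log2 fold change over the square root of F. Exact binomial 95% intervals of count ratios cover counting error only. The fit was also tried on simulated counts with a lower dispersion and fewer changed genes than here. The common dispersion of these libraries was 0.195, and how the fit does at that spread was not tested. Alternatives used DESeq2 1.42.0 and limma 3.58.1 on log2(FPKM + 0.1) or log2(FPKM + 1). Others used TMM factors or median ratios, both from the genes tested alone, and other filters and thresholds. Further fits took all 6 groups in 1 fit, left out Kdm5d or added a replicate block. The rest used E20_NTC replicate 3 as the only control or left out each library. Shared exon bases and stretches come from GENCODE M21 (mm10), where 37 of the 42 genes had the files' coordinates. 1 gene was fitted and counted with the rest but is not reported here. The other genes apart from Kdm5d are named, and members and lists were chosen with earlier results of these data known. Each retina was taken as 1 replicate, and p-values measure only the spread between these samples.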

Additional observations from a re-analysis of the deposited data

How the results depend on the processing

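The number of higher genes, 17, became 10 with a minimum of 10 counts in at least 3 libraries, 9 with limma on log2(FPKM + 1) and 8 with E20_NTC replicate 3 as the only control, with 11 lower genes in that last fit. Leaving out 1 library gave 11 to 15 higher and 9 to 11 lower. TMM factors moved the median log2 fold change by -0.39 and gave 12 higher and 14 lower in place of 17 and 12, so directions are relative to the library sizes used. The same-numbered libraries had correlations of 0.175, -0.151 and -0.178 and were not taken as pairs; the replicate block gave 16 higher and 9 lower. Of 730 values for single genes 624 kept direction and side of the threshold, 81 lost the call, 6 gained it and 19 changed sign, none of these in a called gene. Under every alternative 9 calls were kept, Fos, Gm39119, Nfkb2 and Etv4 higher and Dio3os, Zfp97, Zfp960, Irx1 and Spdef lower. That list depends on level as well as on spread. Creb5, Mlc1 and Hnf4g lost the call only with limma on log2(FPKM + 1), which shrinks fold changes at low FPKM. Gstp2 lost it only with the minimum of 10 counts in at least 3 libraries. That filter left genes with few counts untested, Gstp2 among them, and untested was counted as lost. The changed signs were, as log2 fold changes with TMM factors, -0.24 for Fgf3, -0.33 for Aldh1a3, -0.29 for Foxn4 and -0.31 for Nfatc4, and with median ratios -0.0107 for Aldh1a3. With E20_NTC replicate 3 alone they were 0.69 for Pax7, -0.29 for Fgf3, -0.11 for Aldh1a3 and 0.0335 for Ecel1. Without 1 library the log2 fold change ran from -1.12 to 0.12 for Pax7, -0.60 to 0.35 for Gngt1, -0.45 to 0.13 for Guca1a, -0.45 to 0.0267 for Sox14, -0.10 to 0.40 for Fgf3, -0.22 to 0.20 for Aldh1a3 and -0.0607 to 0.19 for Nfatc4. The causes were not tested.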
